A study of Mus musculus with 4 samples.

Results

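Retinas lacking the transcription factor gene Fezf2 were compared with retinas of control littermates at postnatal day 14 (P14), the age at which mouse eyes have just opened. The comparison rests on 2 of the 4 libraries of the study, 1 labelled with the genotype Fezf2KO and 1 labelled wildtype, both from postnatal day 14 on a background given as C57/BL/6J. The other 2 libraries hold the same genotypes at postnatal day 7 (P7) and are set beside the P14 values. Levels were deposited per gene in FPKM (fragments relative to transcript length and to the size of the library), each with a lower and an upper bound. Of 22558 gene symbols, 12813 reached 1 FPKM in at least 1 of the P14 libraries once small RNAs and loci under 300 bases were left out, and these genes are described here. Each sample was whole retina, so a lower level from fewer cells of a type and a lower level from less RNA per cell cannot be told apart. The knockout allele, the sex of the mice and how many mice went into a library were not given in the sources used here. With 1 library per group no test was possible, and every value below describes these libraries.

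Differences are given as log2 of (KO FPKM + 1) over (control FPKM + 1), which understates the difference of low genes. Where a gene reached the floor of 1 FPKM in 1 library alone, its direction was fixed by that floor. A gene is said to have bounds apart where the deposited bounds of the 2 libraries did not overlap, and these bounds cover counting error only, not the spread between mice or dissections. FPKM exceeded its own upper bound at 1809 loci of the control and 2243 loci of the KO library at P14, so a printed level can lie above the bounds printed beside it. By these measures 7 genes (0.0546%) were at least 2-fold higher and 32 (0.25%) at least 2-fold lower in the KO library. At 1.5-fold the numbers were 58 higher (0.453%) and 131 lower (1.02%). Bounds were apart for 952 genes that were higher (7.43%) and for 1049 that were lower (8.19%), and the median difference of all 12813 genes was 0.00. The shares in this paragraph are the background for the counts of gene lists below, and they were not matched to the lists for level. Bounds were tighter at high levels. In control their median half-width was 15.4% of the level at 1 to 10 FPKM and 7.57% from 10 FPKM up. A small difference can therefore set bounds apart in a list of abundant genes. At the 2-fold line, Gdf1 lay just inside with a difference of 1.03 and Fos just outside with 1.0, and on the lower side Syt15 lay just inside with -1.02 and C4bp-ps1 just outside with -0.99.

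Fezf2 encodes a zinc-finger transcription repressor that is best known for specifying corticospinal neurons of the deep cerebral cortex. Retinal bipolar cells are the interneurons that carry photoreceptor signals to the inner retina. Bipolar cells that sense light increments do so through the metabotropic receptor mGluR6 and the channel TRPM1, whereas OFF cone bipolar cells, which sense light decrements, use ionotropic AMPA and kainate receptors. Their terminals receive inhibition from amacrine cells through GABA and glycine receptors.

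Immediate early genes, which neurons and glia switch on quickly upon calcium entry or growth factor signals, had a median difference of 0.35 at P14, and that of reactive glia genes was 0.39, or 0.21 with no floor on the level. Their promoters often carry the cAMP response element, TGACGTCA, or its 5-base half-site TGACG, which is bound by CREB. The 250 bases before the start site are shown for 4 list members that were higher with bounds apart, to let these letters be seen in place. They come from RefSeq on GRCm38.p6, 5′ to 3′ on the strand of the gene, and capitals mark the half-site on either strand (TGACG or CGTCA) or the full element, which holds both overlapping half-sites. The windows are chr12:85473640-85473889 (plus strand) for Fos, chr15:101266596-101266845 (plus) for Nr4a1, chr17:26508473-26508722 (minus) for Dusp1 and chr1:134079156-134079405 (minus) for Btg2.
Fos: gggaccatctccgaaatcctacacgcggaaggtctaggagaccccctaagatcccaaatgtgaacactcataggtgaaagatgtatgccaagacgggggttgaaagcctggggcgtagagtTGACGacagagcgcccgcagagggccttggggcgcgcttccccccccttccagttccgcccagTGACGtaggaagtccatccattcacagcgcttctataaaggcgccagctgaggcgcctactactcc
Nr4a1: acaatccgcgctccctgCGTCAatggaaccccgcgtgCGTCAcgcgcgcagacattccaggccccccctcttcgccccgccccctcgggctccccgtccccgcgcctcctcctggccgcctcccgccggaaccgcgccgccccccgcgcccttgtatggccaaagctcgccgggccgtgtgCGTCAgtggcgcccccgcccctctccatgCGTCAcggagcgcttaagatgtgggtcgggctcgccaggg
Dusp1: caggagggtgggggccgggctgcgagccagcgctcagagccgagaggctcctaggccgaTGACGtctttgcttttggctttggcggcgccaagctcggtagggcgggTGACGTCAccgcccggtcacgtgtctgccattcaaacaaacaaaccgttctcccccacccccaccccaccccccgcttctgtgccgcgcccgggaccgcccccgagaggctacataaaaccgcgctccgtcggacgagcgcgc
Btg2: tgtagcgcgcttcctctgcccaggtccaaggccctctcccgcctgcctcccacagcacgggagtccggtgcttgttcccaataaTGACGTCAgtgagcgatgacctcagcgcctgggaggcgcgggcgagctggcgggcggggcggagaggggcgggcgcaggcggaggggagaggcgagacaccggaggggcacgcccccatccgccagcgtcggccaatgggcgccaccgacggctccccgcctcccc
Fos held 2 half-sites and Nr4a1 held 4, while Dusp1 and Btg2 each held 1 full element, with a separate half-site in Dusp1. Windows were tabulated for 27 of the 35 listed genes. Egr1, which had the largest difference of the list (1.69), was among those left out. Of the 27, 17 (63%) held a half-site and 4 (14.8%) a full element. Among all 27025 genes with a window the shares were 19.8% and 1.77%. The list and this wider set were not matched for which genes were left out, so their shares are not a like-for-like comparison. These matches describe letters in a window and say nothing of binding.

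Fezf2 itself, on chromosome 14 from 13174406 to 13178379 of the mm9 build, was listed at 4.02 FPKM (bounds 3.20 to 4.69) in control and 0.126 FPKM (0.0494 to 0.214) in KO retina. The level left in the KO library was 3.14% of the control, a log2 difference of -2.16. Its paralog Fezf1 was below the floor in both libraries, at 0.972 FPKM in control and 0.396 FPKM in KO retina (difference -0.50, bounds apart). Among 21 measured genes of the deep-layer cortical program and partners of Fezf2, 8 lay above and 13 below the control, with bounds apart for 1 and 4, and the median difference was -0.08.

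**Figure D1:**
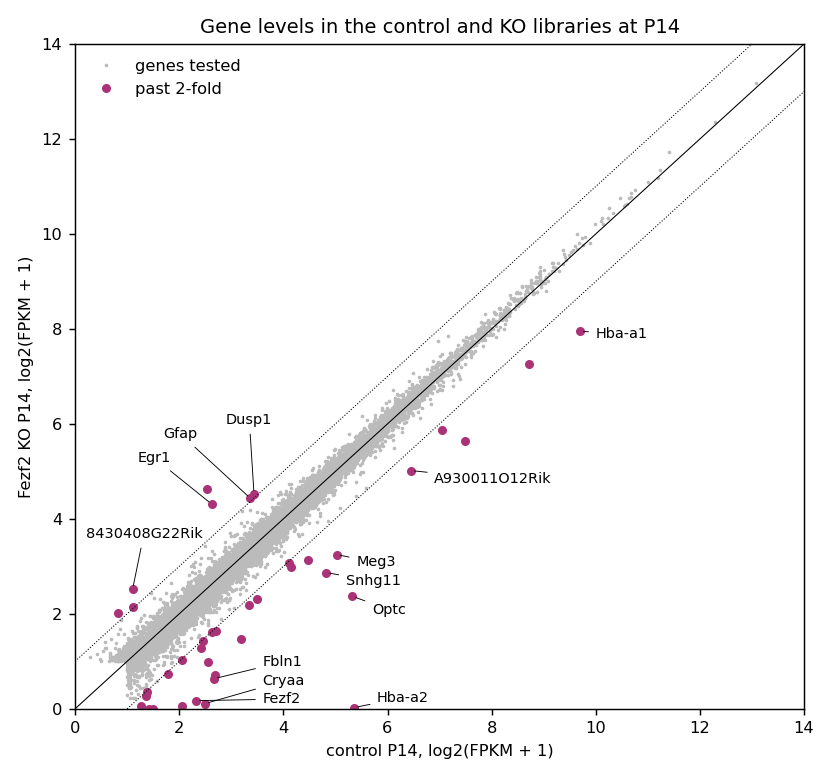
Levels of the 12813 genes in the KO against the control library at P14, both as log2(FPKM + 1), with 1 point per gene; the solid line marks equal levels, the dotted lines a 2-fold difference and larger points the 39 genes past it. More of the large points lie below the lines (32) than above (7), and Fezf2, Optc, Cryaa and Snhg11 are among the lowest.

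Genes of rods and Mueller glia were high in both libraries. Gnat1, the rod transducin gene, was at 4979 FPKM in control and 5236 FPKM in KO retina, and the Mueller glia gene Glul was at 1124 and 1190 FPKM. Markers of lens fibre (Mip, 0.369 and 0.352 FPKM), cornea (Krt12, 0.186 and 0.298 FPKM) and muscle (Ckm, 1.39 and 1.63 FPKM) were low in both. Not all markers of surrounding tissue were low or level. The pigment epithelium gene Rpe65 was at 20.9 and 16.5 FPKM, and erythroid genes summed to 1256 FPKM in control and 424 FPKM in KO retina. The lens gene Cryaa and the ciliary epithelium gene Optc, given below, also differed between the libraries. Small RNAs and short loci held 9.18% of the summed FPKM in control and 7.96% in the KO library. The files hold no counts, and the median half-width of the bounds for loci at 1 to 10 FPKM was 15.4% of the level in control and 13% in the KO library. Xist was at 24.9 and 15.6 FPKM, and the Y-linked genes Kdm5d and Eif2s3y were listed at 0 in both P14 libraries, with Ddx3y at 0.133 and 0.158 FPKM and Uty at 0.0153 and 0.0226 FPKM.

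Among bipolar genes, the OFF cone bipolar list was lower on balance in the KO library at P14. Of 17 measured members of 19 listed, 14 were lower, 6 of them with bounds apart, and 3 were higher, 0 of them with bounds apart, where 8.19% of all genes had bounds apart on the lower side. The median difference was -0.19, against 0.00 for all genes, of which 50.8% were higher and 49.2% lower. Grik1, a kainate receptor subunit of OFF bipolar dendrites, was at 27.8 FPKM (26.2 to 29.5) in control and 14.6 FPKM (13.6 to 15.6) in the KO library, a difference of -0.89. At P7 it had been at 13.4 and 10.9 FPKM, so the control level was higher at P14 than at P7 by a wide margin and the KO level by a narrow one. Tacr3, the neurokinin 3 receptor gene, was likewise highest in the P14 control, with 4.50 and 5.22 FPKM in control and KO at P7 and 11.6 and 6.89 FPKM at P14 (-0.67).

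The 6 members that were lower with bounds apart encode 2 receptors, a secreted ligand, 2 protocadherins and 1 transcription factor, whereas the bounds of 4 homeobox genes of the list overlapped. Nxph1, a secreted ligand of neurexins, was at 7.09 FPKM in control and 4.58 FPKM in KO retina (-0.54), the reverse of P7, when it was at 7.73 and 11.6 FPKM. The protocadherin genes Pcdh17 (4.51 and 3.10 FPKM) and Pcdh10 (17.5 and 13.2 FPKM) and the basic helix-loop-helix gene Bhlhe22 (19.3 and 13.9 FPKM) were lower with bounds apart. Vsx1 (-0.08), Irx5 (-0.13), Irx6 (0.14) and Lhx3 (-0.19), all homeobox genes of cone bipolar cells, had overlapping bounds. The channel gene Hcn4 (-0.02) and the synaptotagmin gene Syt2 (0.22), both abundant in particular OFF types, also had overlapping bounds. The median of the list at P7 was 0.18, with 6 members higher and 2 lower with bounds apart. Among all 12669 genes measured at P7, 7.32% were higher and 6.06% lower with bounds apart.

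A general list of bipolar genes was lower on balance as well, though some of its members belong to particular bipolar classes. Of 20 in the list, 14 were lower, 11 with bounds apart, and 6 higher, 2 with bounds apart, and the median was -0.25 (-0.05 at P7). Cabp5, whose product binds calcium in bipolar cells, was at 67.7 FPKM (57.7 to 65.1) in control and 49.4 FPKM (42.0 to 47.5) in the KO library. The helix-loop-helix gene Neurod4 was at 95.1 and 75.6 FPKM (-0.33), the LIM homeobox gene Lhx4 at 10.5 and 7.66 FPKM (-0.41), and Samsn1 at 10.2 and 7.55 FPKM (-0.39). Going the other way, Pcp2, a G-protein modulator of ON bipolar cells, was at 262 and 328 FPKM (0.32) and Prdm8, a zinc-finger gene of bipolar cells, at 28.9 and 34.1 FPKM (0.23), both with bounds apart. The set was therefore not lower as a block: Isl1 (0.08), Prkca (0.05) and Otx2 (-0.11) had overlapping bounds.

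Lists of other bipolar classes lay closer to the background in their medians only. In each of them the share lower with bounds apart was above the 8.19% of all genes. The mGluR6 and TRPM1 cascade had 6 of 15 members higher and 9 lower (2 and 4 with bounds apart, median -0.03). Among its lower members, Grm6 differed by -0.259 and Trpm1 by -0.235. Rod bipolar genes had 6 of 15 higher and 9 lower (1 and 3 with bounds apart, median -0.07). ON cone bipolar genes had 9 of 17 higher and 8 lower, and all 5 with bounds apart were lower (median 0.05). These lists share genes with the general bipolar list, and whether they differ from the OFF cone bipolar list was not tested.

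GABA and glycine receptor genes, with their scaffold and chloride transporter genes, were lower in the KO library in nearly the whole list. Of 25 measured members, 23 were lower and 2 higher, and bounds were apart for 13 lower and 0 higher. The median difference was -0.24, and the summed level of the list was 589 FPKM in control and 503 FPKM in KO retina. At P7 the median was -0.03, with 1 member higher and 3 lower with bounds apart.

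Among the GABA-A subunits, the beta subunit gene Gabrb2 was at 12.1 FPKM (11.3 to 12.8) in control and 8.85 FPKM (8.28 to 9.36) in the KO library, a difference of -0.41. At P7 the same gene had been at 5.97 FPKM in control and 5.84 FPKM in KO retina, so the libraries were level at P7 and apart at P14. The alpha subunit gene Gabra3 (15.6 and 13.1 FPKM) was also lower with bounds apart. Gabrg1, a gamma subunit gene, was at 2.94 and 1.78 FPKM (-0.50), against 1.15 and 1.13 FPKM at P7. The rho subunits, which form the GABA-C receptors of bipolar terminals, had these differences: Gabrr1 by -0.14 and Gabrr3 by -0.31 with overlapping bounds, and Gabrr2 by -0.23 with bounds apart. Gabrd, an extrasynaptic subunit, was at 10.4 and 12.9 FPKM (0.28, bounds overlapping).

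Glycine receptor subunit genes were lower too, and the lowest difference of the list was in Glra3. It was at 8.21 FPKM (6.29 to 9.27) in control and 4.95 FPKM (3.73 to 5.48) in the KO library, a difference of -0.63. Glra2 was at 14.4 and 10.2 FPKM (-0.46), and Glra1, the subunit most used by OFF bipolar terminals and ganglion cells, at 6.08 and 3.87 FPKM (-0.54). Of these 3 genes, Glra1 was the one with bounds apart at P7 too, at 3.06 and 1.27 FPKM (-0.84). The beta subunit gene Glrb, which anchors the receptor, was at 38.9 and 31.9 FPKM (-0.28), whereas Glra4 was at 2.5 and 2.51 FPKM. Gphn, the gephyrin scaffold gene, differed by -0.05 with overlapping bounds. The genes for the chloride exporter Slc12a5 (102 and 96.0 FPKM) and the GABA-B subunit Gabbr1 (43.8 and 41.2 FPKM) differed by -0.08 each.

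Presynaptic genes of the inhibitory cells went both ways. Gad1, which makes GABA, was at 102 FPKM in control and 91.0 FPKM in KO retina (-0.16, bounds apart). The vesicular transporter gene Slc32a1 was at 53.2 and 58.2 FPKM (0.13) and the glycine transporter gene Slc6a9 at 69.6 and 65.1 FPKM (-0.10), both with overlapping bounds. The amacrine cell list had 15 of 24 members higher and 9 lower, with 3 on each side with bounds apart and a median of 0.07. Whether receptor and amacrine genes differ from each other was not tested.

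**Figure D2:**
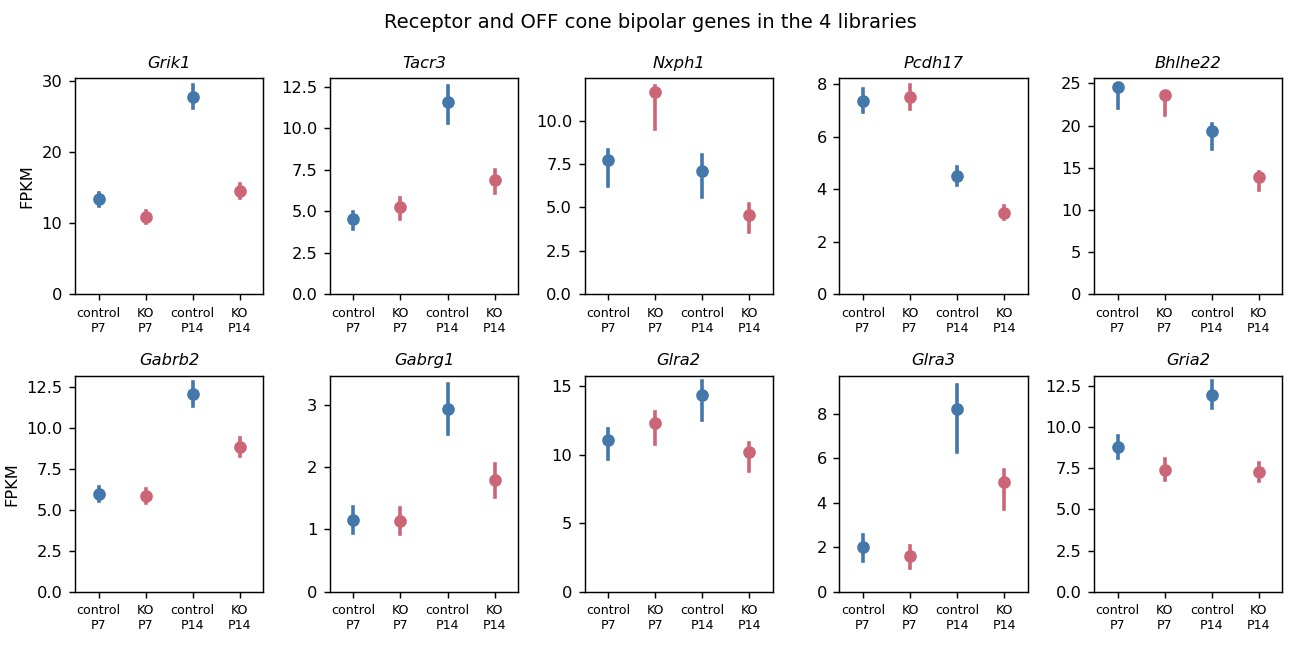
FPKM of 10 receptor and OFF cone bipolar genes in the 4 libraries (blue control, red KO), where points are the deposited levels and bars the deposited bounds, with an axis from 0 in each panel. Gabrb2 is at 5.97 and 5.84 FPKM at P7 and at 12.1 and 8.85 FPKM at P14, and each of the 10 genes is lower in the KO library at P14.

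Ionotropic glutamate receptor genes were split. Of 26 measured, 11 were higher and 15 lower, with 1 and 4 with bounds apart and a median of -0.07. The AMPA subunit gene Gria2, whose product keeps the receptor impermeable to calcium, was at 11.9 FPKM (11.1 to 12.8) in control and 7.27 FPKM (6.71 to 7.85) in the KO library. Gria4 was at 30.0 and 22.7 FPKM (-0.39), and with Grik1 and the kainate auxiliary gene Neto2 (10.2 and 8.26 FPKM) these make up the 4 that were lower with bounds apart. Gria1 (-0.09), Gria3 (-0.12) and the NMDA subunit gene Grin1 (-0.11) had overlapping bounds. The single member that was higher with bounds apart was Cacng5, an AMPA receptor auxiliary gene, at 19.1 and 21.7 FPKM.

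Adhesion and guidance genes that place neurites in the retinal layers were lower on balance. Of 64 measured, 42 were lower, 22 with bounds apart, and 22 higher, 0 with bounds apart, with a median of -0.14 (0.02 at P7, when 14 were higher and 4 lower with bounds apart). Lrrtm4, a synapse organizer of rod bipolar terminals, was at 6.88 FPKM in control and 4.77 FPKM in KO retina (-0.45). Neurexin and neuroligin genes were among the lower members: Nrxn3 was at 12.6 and 10.1 FPKM and Nlgn1 at 5.74 and 4.61 FPKM. The repulsive guidance genes Sema3a (2.36 and 1.64 FPKM) and Unc5d (4.12 and 3.05 FPKM) and the Unc5 ligand gene Flrt3 (5.44 and 4.01 FPKM) were lower with bounds apart. The cadherin gene Cdh8, which marks some OFF bipolar types, was at 10.5 and 8.24 FPKM at P14 (-0.32) and at 15.8 and 22.2 FPKM at P7 (0.47). Dscam (-0.01), Nrxn2 (0.00) and Cntnap2 (0.00) were level, and Lrrtm1 (0.23) was the highest of the list, with overlapping bounds.

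The genes of the receptor and adhesion lists are long, and gene length moved with the difference across the whole comparison at P14. In the tenth of genes with the longest genomic span (129 to 2256 kb) the median difference was -0.05, and 2.81% were higher and 16% lower with bounds apart. In the tenth with the shortest span (0.312 to 3.73 kb) the median was 0.09, with 12% higher and 2.89% lower. At P7 the medians of the same longest and shortest groups were 0.02 and 0.04. The median span was 159 kb for the adhesion list, 122 kb for ionotropic glutamate receptors and 91.6 kb for the GABA and glycine receptor list, against 21.9 kb for all genes. The median of the matching span group was then subtracted from every gene. The list medians became -0.21 for GABA and glycine receptors, -0.18 for OFF cone bipolar and -0.22 for general bipolar genes. They were -0.09 for adhesion and -0.03 for ionotropic glutamate receptor genes.

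**Figure D3:**
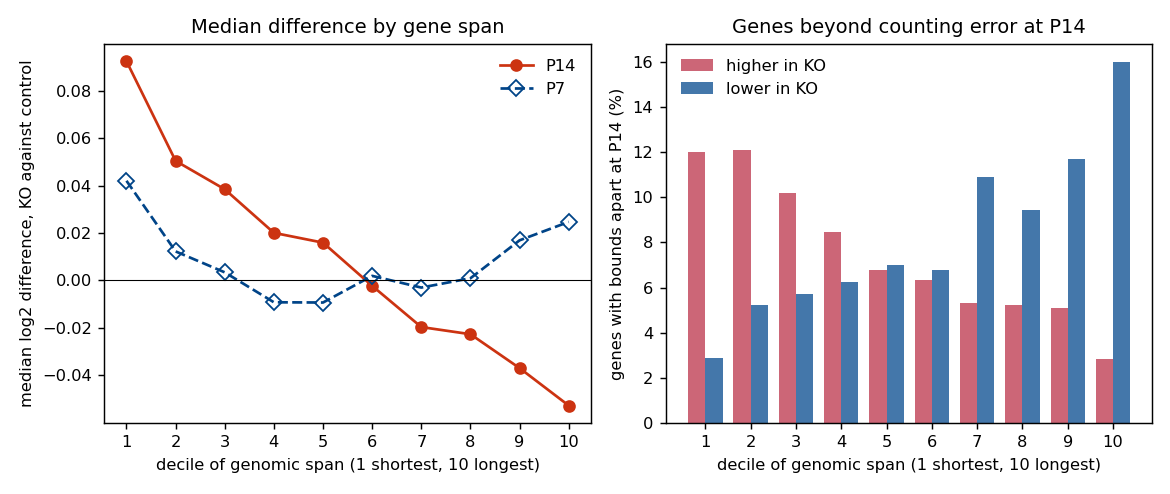
Genes tested at P14 in 10 groups of rising genomic span; the left panel gives the median log2 difference (filled points P14, open points P7) and the right panel the share of genes with bounds apart at P14 in each direction. The P14 median goes from 0.09 in the shortest to -0.05 in the longest group, while the P7 median is 0.04 and 0.02 there.

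Photoreceptor genes differed little. Rod phototransduction genes had a median of 0.07 with 13 of 22 higher and 3 lower with bounds apart, narrow differences at levels where counting error is small. The phosphodiesterase subunit gene Pde6g was at 2728 FPKM in control and 3374 FPKM in KO retina (0.31), and Sag, the rod arrestin gene, at 2404 and 2592 FPKM (0.11). Cone genes had 8 of 16 higher and 8 lower (median 0.01), with the cone arrestin gene Arr3 lower at 40.9 and 26.2 FPKM (-0.62) and the short-wavelength opsin gene Opn1sw higher at 179 and 202 FPKM (0.18). These medians moved across 0 on a TPM scale for cone genes (-0.03) but not for rod genes (0.03).

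Among the genes of photoreceptor structure and synapse, 2 stood far from the others. Rpgrip1, a ciliary protein of the connecting cilium, was at 33.1 FPKM (31.7 to 34.8) in control and 17.7 FPKM (16.7 to 18.7) in the KO library, a difference of -0.87. It was lower at P7 also, at 39.3 and 27.4 FPKM. Cacna1f, the calcium channel of photoreceptor terminals, was at 18.6 and 11.5 FPKM (-0.64). The medians of the outer segment and ribbon synapse lists were 0.00 and 0.00.

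Horizontal and ganglion cell genes were higher on balance in the KO library. Of 13 horizontal cell genes 11 were higher, 7 with bounds apart, and 2 lower, 0 with bounds apart (median 0.19). At P7 13 of 14 were higher, 7 with bounds apart, and 1 lower, 0 with bounds apart (median 0.17). The calcium buffer gene Calb1 was at 40.5 FPKM in control and 47.4 FPKM in KO retina, the homeobox gene Prox1 at 25.8 and 29.0 FPKM and the adrenergic receptor gene Adra2a at 8.25 and 11.1 FPKM. The factors that define the class at the level of transcription were closer, with Lhx1 at 2.23 and 2.41 FPKM and Onecut1 at 1.86 and 1.72 FPKM.

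Of 28 ganglion cell genes 19 were higher, 10 with bounds apart, and 9 lower, 2 with bounds apart (median 0.09, 0.06 at P7). Pou4f1 was at 9.55 and 12.1 FPKM (0.31) and Isl2 at 3.69 and 5.47 FPKM (0.46), both transcription factors of ganglion cells. Pou4f2 (-0.02), Slc17a6 (-0.05) and the melanopsin gene Opn4 (-0.04) were level. Neurofilament genes Nefl (0.15), Nefm (0.28) and Nefh (0.23) were higher with bounds apart, and Nefl and Nefm stand in both lists.

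Peptide and vesicle genes of inner retinal neurons showed single large differences rather than a common direction. Tac1, which encodes substance P, the ligand of a receptor related to Tacr3, was at 21.6 FPKM (15.9 to 20.6) in control and 14.1 FPKM (10.3 to 13.7) in the KO library. Crhbp, the binding protein of corticotropin-releasing hormone, was at 16.8 and 6.97 FPKM at P14 (-1.16) and at 3.49 and 9.37 FPKM at P7. The somatostatin gene Sst was at 6.97 and 11.4 FPKM (0.63) with overlapping bounds. Of 19 measured genes of peptides and their receptors, 7 were higher and 12 lower, with bounds apart for 1 and 3. Among 29 vesicle genes, 16 were higher and 13 lower (4 and 5 with bounds apart). Synpr was the lowest of the vesicle genes at 151 and 110 FPKM (-0.45), followed by Syt4 at 59.2 and 45.4 FPKM (-0.38).

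Immediate early genes were higher in the KO library at P14 in nearly the whole list. Of 29 measured of 35 listed, 27 were higher, 14 with bounds apart, and 2 lower, 0 with bounds apart. The median was 0.35 (0.06 at P7). Summed levels of the list were 454 FPKM in control and 485 FPKM in KO retina at P7. At P14 they were 294 and 419 FPKM, both below either P7 sum. Egr1, a zinc-finger activator, was at 5.15 FPKM (4.35 to 5.88) in control and 18.9 FPKM (16.9 to 19.6) in the KO library. At P7 it had been at 10.8 and 13.3 FPKM, so the P14 libraries lie below and above both P7 levels.

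The 4 genes whose upstream sequence is printed above were all among those with bounds apart. Fos was at 9.94 and 20.9 FPKM at P14, Nr4a1 at 8.17 and 16.8 FPKM, and Dusp1 at 9.83 and 21.9 FPKM. Btg2 differed less, at 28.1 and 38.5 FPKM. The kinase gene Sik1 (2.6 and 5.29 FPKM) and Junb (6.34 and 10.5 FPKM) were also higher with bounds apart, whereas Jun (14.4 and 16.8 FPKM) and the stress-linked Atf3 (2.86 and 2.80 FPKM) had overlapping bounds. The list is made of short genes (median span 3.37 kb), and its median was 0.32 after subtraction of the median of the matching span group.

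Reactive glia genes were higher alongside. Of 16 measured, 14 were higher, 6 with bounds apart, and 2 lower, 1 with bounds apart, with a median of 0.39. The other 7 of the 23 listed were under the floor of 1 FPKM, and with no floor the median was 0.21. Gfap, the intermediate filament of astrocytes and stressed Mueller glia, was at 9.32 FPKM (8.40 to 10.3) in control and 20.6 FPKM (19.2 to 21.9) in the KO library, against 9.03 and 9.02 FPKM at P7. The metallothionein genes Mt1 (141 and 231 FPKM), Mt2 (44.9 and 70.5 FPKM) and Mt3 (69.4 and 90.0 FPKM) and the endothelin receptor gene Ednrb (1.51 and 2.95 FPKM) were higher with bounds apart. A2m was lower, at 2.22 and 1.37 FPKM. Homeostatic Mueller glia genes showed no such shift, with 12 of 25 higher and 13 lower and a median of -0.01, and the astrocyte factor gene Pax2 was at 0.381 and 0.403 FPKM. Microglia genes were lower in 13 of 16, with bounds apart for 1 and a median of -0.22.

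Genes of cell stress went both ways. In the apoptosis and p53 list 20 of 25 were higher, 5 with bounds apart, and 5 lower, 2 with bounds apart (median 0.11). Bbc3, the proapoptotic BH3-only gene also called Puma, was at 1.73 FPKM in control and 4.38 FPKM in KO retina, Sesn2 at 6.34 and 9.58 FPKM, and Cdkn1a, a cell cycle inhibitor, at 4.80 and 6.75 FPKM. Several chaperones of the endoplasmic reticulum were lower at P14: Hsp90b1 was at 114 and 84.3 FPKM, Hspa5 at 127 and 103 FPKM, and Calr at 193 and 169 FPKM. At P7 the same 3 had been higher in the KO library, at 116 and 133, 108 and 129, and 203 and 231 FPKM. Canx was at 80.7 and 65.0 FPKM at P14. The whole heat shock and unfolded protein list had 9 of 24 higher and 15 lower, 1 and 7 with bounds apart, and a median of -0.04. Its higher members include the cochaperone gene Dnajb1 (32.0 and 38.6 FPKM, bounds apart).

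**Figure D4:**
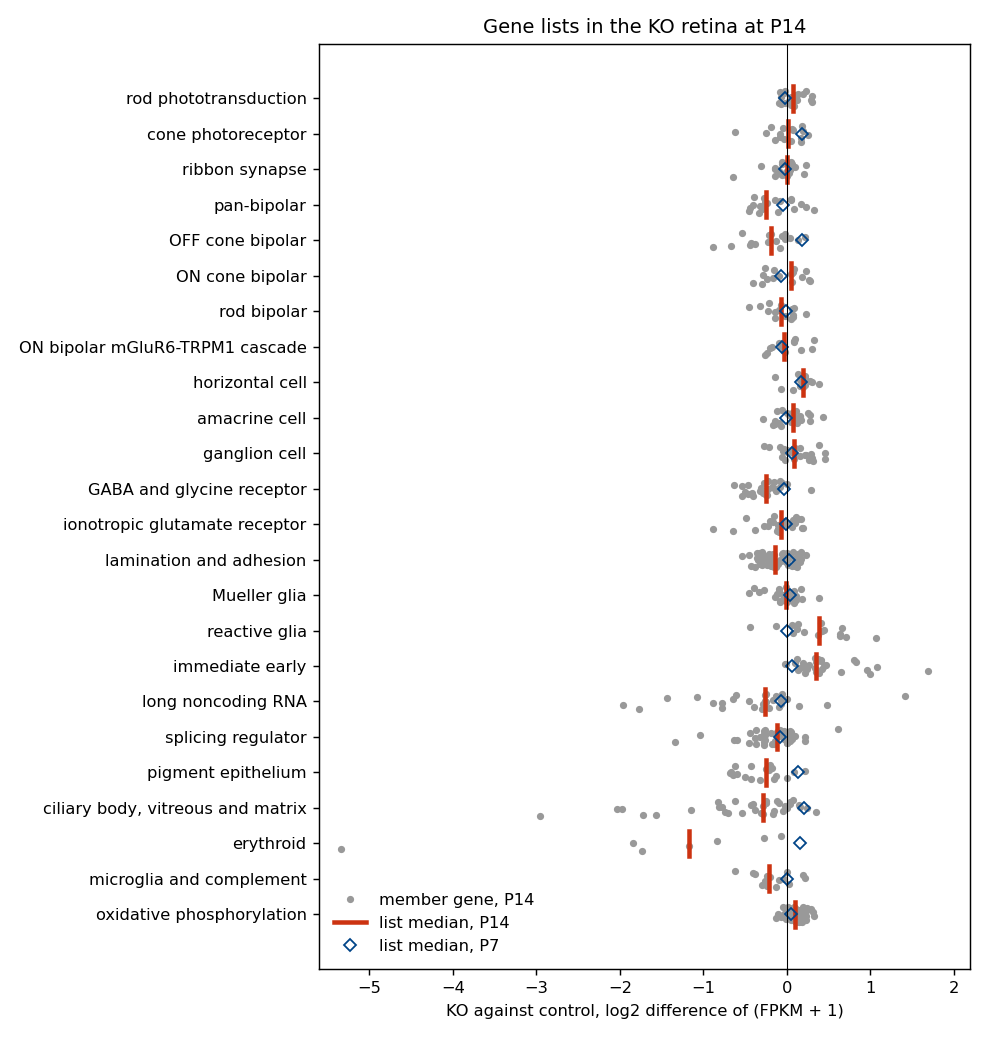
Log2 differences between the KO and control libraries for the measured members of 24 gene lists, with 1 grey point per gene at P14, a red bar at the P14 median and an open diamond at the P7 median. Immediate early (0.35) and reactive glia (0.39) genes lie to the right of 0 at P14, while erythroid (-1.17), matrix (-0.29) and GABA and glycine receptor genes (-0.24) lie to the left. With no floor on the level the medians were -0.07 for erythroid, -0.19 for matrix and 0.21 for reactive glia genes.

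Lists of tissue around the neural retina did not share a direction. Those of ciliary body, vitreous and matrix and of pigment epithelium were lower on balance in KO retina at P14 and had been higher at P7. The cornea, muscle and connective tissue list had 5 of 9 measured members higher and 4 lower, with bounds apart for 1 and 0. Its median was 0.13 at P14 and 0.07 at P7. The list of ciliary body, vitreous and matrix genes had 28 of 35 measured members lower, 20 with bounds apart, and 7 higher, 1 with bounds apart. Its median was -0.29, against 0.20 at P7, when 18 were higher and 3 lower with bounds apart. The other 14 of the 49 listed were under the floor of 1 FPKM at P14, and with no floor the P14 median was -0.19. The summed level of the list was 542 FPKM in control and 649 FPKM in KO retina at P7, and 685 and 595 FPKM at P14. How this material entered the libraries, and its part in the differences of other genes, was not tested.

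Optc, which encodes the vitreous proteoglycan opticin made by the nonpigmented ciliary epithelium, shows the reversal. It was at 3.22 FPKM in control and 19.5 FPKM in KO retina at P7, and at 39.1 FPKM (36.4 to 41.9) and 4.17 FPKM (3.48 to 4.86) at P14. Type IX collagen, a vitreous collagen, followed it to a smaller degree, with Col9a1 at 36.8 and 49.2 FPKM at P7 and at 24.0 and 14.4 FPKM at P14. Fbln1 (5.37 and 0.552 FPKM at P14) and Mfap4 (5.43 and 0.636 FPKM), both of elastic fibre matrix, were lower by a wide margin. Otor (8.11 and 1.75 FPKM) and Wfdc2 (4.86 and 0.975 FPKM) were lower at P14 with bounds apart and had overlapping bounds at P7. Fbln1, Mfap4 and Wfdc2 reached the floor of 1 FPKM at P14 through the control library alone and so had to be lower. Col6a1 was lower at both ages, at 11.7 and 8.60 FPKM at P7 and 4.37 and 1.42 FPKM at P14. Sparc (363 and 359 FPKM) and Timp3 (29.4 and 27.4 FPKM), which retinal cells and vessels also express, were level.

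**Figure D5:**
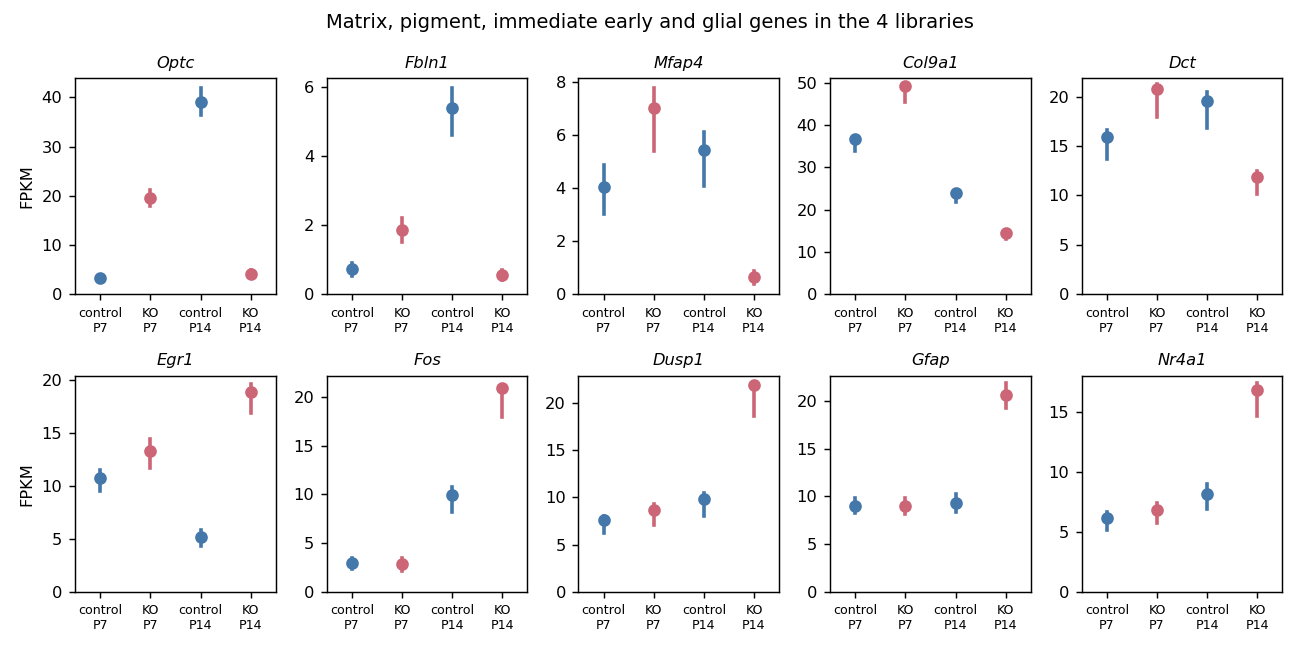
FPKM of 5 matrix and pigment genes (top) and 5 immediate early and glial genes (bottom) in the 4 libraries (blue control, red KO), with points for deposited levels, bars for deposited bounds and an axis from 0 in each panel. In the top row the KO level is above the control at P7 and below it at P14, and in the bottom row the KO library at P14 holds the highest level, 20.6 FPKM for Gfap against 9.32 FPKM in the control.

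Pigment epithelium genes had 16 of 19 measured members lower, 10 with bounds apart, and 3 higher, 0 with bounds apart (median -0.25, 0.13 at P7). Summed levels were 324 and 353 FPKM at P7 and 582 and 513 FPKM at P14 in control and KO libraries. The melanin genes Dct (19.6 and 11.9 FPKM), Pmel (6.79 and 3.88 FPKM) and Tyrp1 (4.37 and 2.54 FPKM) were lower by more than the visual cycle gene Rpe65 (20.9 and 16.5 FPKM). Lrat, of the same cycle, was at 3.25 and 2.83 FPKM with overlapping bounds. Rlbp1, which Mueller glia express too, was level at 301 and 303 FPKM.

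All 7 measured erythroid genes were lower, 4 with bounds apart, and the summed level of the list was 1256 FPKM in control and 424 FPKM in KO retina. Hba-a2 reached the floor of 1 FPKM through the control library alone and so had to be lower. The other 6 of 13 matched genes were under the floor, and with no floor the median moved from -1.17 to -0.07. Alas2, the heme synthesis gene of red cell precursors, was at 4.23 and 1.93 FPKM. Single globin genes are uncertain because near-identical copies share reads. Endothelial genes, by contrast, had 16 of 25 higher and 9 lower, 2 and 1 with bounds apart, with Pecam1 at 4.22 and 4.72 FPKM. In the crystallin and lens list 9 of 26 genes were measured. Of these, 5 were higher, 0 with bounds apart, and 4 lower, 3 with bounds apart (median 0.09, 0.84 at P7). Cryaa, Cryba1 (1.81 FPKM in control, listed at 0 in KO retina) and Cryba4 (1.58 and 0.207 FPKM) reached the floor of 1 FPKM through the control library alone and so had to be lower. Of the 26 genes, 2 were listed at 0 in the control and 8 in the KO library. Cryaa was at 4.63 and 0.0779 FPKM, while Cryab, which Mueller glia and pigment epithelium also express, was at 38 and 40.7 FPKM.

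Long noncoding RNAs made up a larger share of the lower genes than of all genes. Of 130 genes at least 1.5-fold lower with a RefSeq type, 20 (15.4%) were long noncoding, against 3 of 57 (5.26%) of those higher and 273 of 12743 (2.14%) of all genes. In the list of retinal and nuclear long noncoding RNAs 26 of 29 measured were lower, 13 with bounds apart, and 3 higher, 2 with bounds apart (median -0.26). The RefSeq type of these list members was not checked, and the highest, 8430408G22Rik (1.42), is not certain to be noncoding. Meg3, the maternally expressed RNA of the Dlk1 locus, was at 31.5 FPKM (29.6 to 33.2) in control and 8.50 FPKM (7.89 to 9.10) in the KO library, and at P7 at 37.2 and 11.4 FPKM. The other RNAs of that locus were lower to unequal degrees, with Mirg at 2.24 and 0.899 FPKM and Rian at 22.4 and 18.0 FPKM. Mirg reached the floor of 1 FPKM through the control library alone and so had to be lower. The nuclear RNAs Neat1, which builds paraspeckles, and Malat1, of nuclear speckles, were at 2.6 and 1.11 FPKM and at 24.0 and 19.5 FPKM. The direction was not uniform, since the snoRNA host genes Snhg11 (27.4 and 6.31 FPKM) and Snhg12 (30.2 and 42.5 FPKM) lay on opposite sides.

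Splicing regulator genes, many of which hold back an intron in nuclear transcripts, were lower in 30 of 43, 17 with bounds apart, and higher in 13, 3 with bounds apart (median -0.12, -0.08 at P7). Leng8 was at 21.1 FPKM in control and 7.74 FPKM in KO retina, Sfrs18 at 16.1 and 7.35 FPKM, and Srsf6, an SR protein gene, at 18.3 and 11.8 FPKM. The kinase genes Clk1 (-0.28) and Clk4 (-0.37), which phosphorylate SR proteins, were lower with bounds apart. D4Wsu53e was the highest of the list, at 67.9 and 104 FPKM at P14 and at 38.9 and 16.6 FPKM at P7. The libraries carry no strand, so antisense and overlapping transcripts cannot be told apart in any of these RNAs.

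Short genes of basic metabolism were slightly higher. Oxidative phosphorylation genes had 51 of 61 higher, 15 with bounds apart, and 10 lower, 0 with bounds apart (median 0.09, 0.05 at P7). Ribosomal protein genes had 59 of 69 higher, 19 with bounds apart, and 10 lower, 1 with bounds apart (median 0.12, median span 2.9 kb). At P7 68 of 69 were higher, 21 with bounds apart, and 1 lower, 0 with bounds apart (median 0.10). After subtraction of the median of the matching span group the P14 medians were 0.06 for oxidative phosphorylation and 0.03 for ribosomal protein genes.

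By chromosome, the share of genes at least 1.5-fold lower was highest on chromosome 14, which carries Fezf2, with 14 of 444 (3.15%) against 1.02% of all genes. On the other chromosomes the share was 0.224% to 1.9%. Chromosome 14 also had the highest share at least 1.5-fold higher, with 4 of 444 (0.901%) against 0.453% of all genes. The 14 include Ptprg, a receptor phosphatase gene that ends at 13074553, before Fezf2, at 5.38 FPKM in control and 3.24 FPKM in KO retina, and also Rpgrip1, A930011O12Rik (86.5 and 31.4 FPKM), Dct, Slitrk6 and Fgf14 (8.72 and 5.24 FPKM). Linkage to the knockout allele and the loss of Fezf2 cannot be told apart here.

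The P14 differences were compared with those at P7, which come from other libraries. Among 12223 genes measured at both ages, 98 were at least 1.5-fold lower at P14 and 69 at P7, and 18 were lower at both, 18.4% of the first and 26.1% of the second. Of the 52 that were higher at P14 and the 36 at P7, 0 were shared. Of all genes measured at P7, 0.379% were at least 1.5-fold higher and 0.624% lower. In the opposite direction at P7 were 12 of the 98 and 3 of the 52. At P7 the median difference of the 98 was -0.14 and that of the 52 was 0.06. The medians at P14 and P7 were -0.24 and -0.03 for GABA and glycine receptor genes, 0.35 and 0.06 for immediate early genes and 0.39 and 0.00 for reactive glia genes. The difference between the ages was not tested. Fezf2, Meg3, Snhg11, Leng8 and A930011O12Rik were lower at both ages.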

How the data were processed

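Levels were taken from the gene tables as deposited by the authors, in FPKM, with bounds and a status for each value per the file headers. Per the submitters' processing notes, CASAVA 1.8.2, TopHat2 2.0.8b, Cufflinks 2.1.1 and the mm9 build were used; the annotation and options were not given in the sources used here. Per the labels' protocols, total RNA was primed at random and read as single ends, with no step that marks strand. Rows of 1 symbol were summed (251 symbols at several loci), 739 short loci (under 300 bases) and small RNA genes were left out, and levels marked as failed (7 symbols at P14) were not used. The difference was log2 of the ratio of (FPKM + 1), over genes at 1 FPKM or more in either P14 library, with Python 3.11.15, pandas 2.3.3, numpy 2.4.6 and matplotlib 3.10.9. The files hold no counts, so depth is known only through the bounds, and 1 library per group leaves 0 residual degrees of freedom. Lists were described by counts and medians, and the script was checked on simulated data. The members and the 46 gene lists were chosen with earlier results of these data known. Genes named in the text were Fezf2 and Fezf1, genes past 2-fold, the 20 highest and 20 lowest at 2 FPKM or more with bounds apart, up to 8 members per list with the largest differences, all OFF cone bipolar members and genes past 1.5-fold in opposite directions at the ages. Other list members were named after their values were seen. Alternatives were a pseudocount of 0.1 FPKM, no floor, a floor of 5 FPKM, a TPM scale, centring on the median, small RNAs kept and, added after seeing the data, subtraction of the median of the span group. Some genes are not reported here.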

Additional observations from a re-analysis of the deposited data

Results flagged for a closer look

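For 11 of the genes named by rule that reached 2 FPKM at P14, the KO library was at least 1.5-fold above the control at one age and at least 1.5-fold below it at the other, with bounds apart at both. Each age has 1 library per genotype, so the difference between the ages was not tested. The P14 difference minus the P7 difference, on the log2 scale, is given for each. Matrix, vitreous and lens genes were among those with negative values, -5.24 for Optc, -4.66 for Cryaa, -2.77 for Fbln1, -2.64 for Mfap4 and -1.52 for Col18a1, the basement membrane collagen whose fragment is endostatin. The peptide-binding gene Crhbp was at -2.37, the melanosome trafficking gene Rab38 at -1.85 and Fam129a at -1.62. In the other direction, D4Wsu53e was at 1.79, Cdk5rap1 at 2.24 and the ribosomal protein gene Rps27 at 4.07, and Rps27 is uncertain because related copies share its reads.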

How the results depend on the processing

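No paired analysis was possible because the labels carry no replicate numbers and each group is 1 library; for the same reason no library could be left out. The counts of genes 2-fold higher, 2-fold lower, 1.5-fold higher and 1.5-fold lower (7, 32, 58 and 131) were 26, 94, 135 and 276 with a pseudocount of 0.1 FPKM, 4, 19, 36 and 57 with a floor of 5 FPKM, and 23, 84, 109 and 317 on a TPM scale. On the TPM scale the pseudocount and floor stayed at 1, which is lower than 1 FPKM, and 14035 genes were measured. The results on that scale therefore do not reflect the change of scale alone. With small RNAs and short loci kept, 62 were 2-fold higher, 91 2-fold lower and 114 1.5-fold higher. With no floor, centring on the median or span subtraction, all 4 counts stayed within 1.5 times. With no floor the list median was 0.21 for reactive glia, -0.0679 for erythroid and -0.0448 for crystallin and lens genes, and that of the cornea and muscle list turned from 0.13 to -0.000268. A floor of 5 FPKM gave -1.45 for erythroid and -0.0463 for interferon genes. On a TPM scale, which moved the median of all genes to -0.03, the crystallin and lens median was -0.887 and that of cornea and muscle turned to -0.064. The other list medians moved by at most 0.1 under each alternative but that with small RNAs and short loci kept, for which only the counts were run, though some near 0 changed sign, cone genes among them. The median of OFF cone bipolar genes was -0.26 and that of GABA and glycine receptor genes -0.30 on the TPM scale. Of 361 named genes, 23 moved by more than their bounds allow on the TPM scale, 29 with a pseudocount of 0.1 FPKM and 17 with span subtraction, which also changed the sign of 4 with differences near 0 (Aldh1l1, Hspb1, Nnat and Zfhx4); of those at least 1.5-fold apart, 0 turned direction. Depth limits genes at 1 to 10 FPKM most, where the bounds were widest.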
